A study of Caenorhabditis elegans with 15 samples.

Results

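The deletion alleles tm474 and ok259 of the neuroligin gene *nlg-1* were compared directly with each other in whole *C. elegans*, over all genes of the count table and without the wild-type strain in the test. The comparison used the 6 libraries of the 2 *nlg-1* mutants, 3 labelled replicates of each, out of the 15 libraries of the study. The other 9 libraries, 3 each of wild-type N2 and of the neurexin mutants *nrx-1* (ok1649) and *nrx-1* (tm1961), were used only to show where a gene lay in other strains. All strains were young adults grown at 20 °C on OP50 bacteria, each sample was a pool of about 20000 worms, and total RNA was sequenced after removal of rRNA. The *nlg-1* (ok259) strain came from the Caenorhabditis Genetics Center and the *nlg-1* (tm474) strain from the National Bioresource Project of Japan. The methods of the study describe ok259 as a full knockout and tm474 as a deletion inside the locus of the gene. Neither strain was backcrossed before sequencing, so a difference between the libraries belongs to the strains as a whole, and the allele and the rest of the genome cannot be told apart. Each sample was whole worms, so fewer cells of a type and less RNA per cell cannot be told apart either.

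Neuroligins are adhesion proteins of the postsynaptic membrane that bind presynaptic neurexins across the synaptic cleft. In *C. elegans*, *nlg-1* encodes the only neuroligin and *nrx-1* the neurexin, and at neuromuscular junctions neuroligin helps to place GABA receptors opposite their release sites, guided by the secreted protein MADD-4. Neuroligins are known from human genetics for mutations found in autism.

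Total counts ran from 17701117 to 21177612 in ok259 and from 10152578 to 26211067 in tm474. The libraries did not group by allele. Genes for yolk (*vit-1* to *vit-6*), which the intestine of adult hermaphrodites makes for the oocytes, held 10.7, 0.044 and 0.108 percent of all counts in ok259 replicates 1, 2 and 3 and 9.09, 0.772 and 0.789 percent in tm474. The summed oocyte and eggshell markers (all 13 counted in every library) were at 11783, 226 and 252 CPM (counts-per-million) of the library total in ok259 and 9519, 1921 and 1777 in tm474. Replicate 1 of both alleles was thus the rich one for both groups, and ok259 replicates 2 and 3 the poor ones. Late larval molting markers (8 of 8 counted) were at 68.99, 1115 and 956 CPM in ok259 and 77.7, 308 and 4271 in tm474, so tm474 replicate 3 stood above all the others. Noncoding RNA genes took 2.99, 30.3 and 30.3 percent of the counts in ok259 and 7.35, 20.3 and 4.99 percent in tm474, a difference of group means of -10.3 percentage points for tm474 minus ok259 that did not pass an exact two-sided permutation test (p = 0.4, where 3 against 3 cannot go below 0.1). Of the markers that check the labelled whole adults, all those of muscle, neuron, oocyte and yolk were counted in all 6 libraries. Of the 63 sperm markers, 57 to 60 were counted in each library. Neuron markers were at 93.4, 81.1 and 83.5 CPM in ok259 and 85.99, 79.4 and 139 in tm474. On log2 CPM over the genes tested, which are not independent replicates, ok259 replicate 1 correlated with tm474 replicate 1 at r = 0.961 and with the other ok259 libraries at 0.743 and 0.762, while ok259 replicates 2 and 3 correlated at 0.975. The first principal component of the 500 most variable genes held 82.7 percent of the variance, with replicate 1 of ok259 and of tm474 at -58.9 and -62.3, ok259 replicates 2 and 3 at 46.7 and 43.2, and tm474 replicates 2 and 3 at -0.26 and 31.7. The part of these states in the results was not tested, beyond the fits without single libraries and the fits that adjust for the noncoding share.

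**Figure D1:**
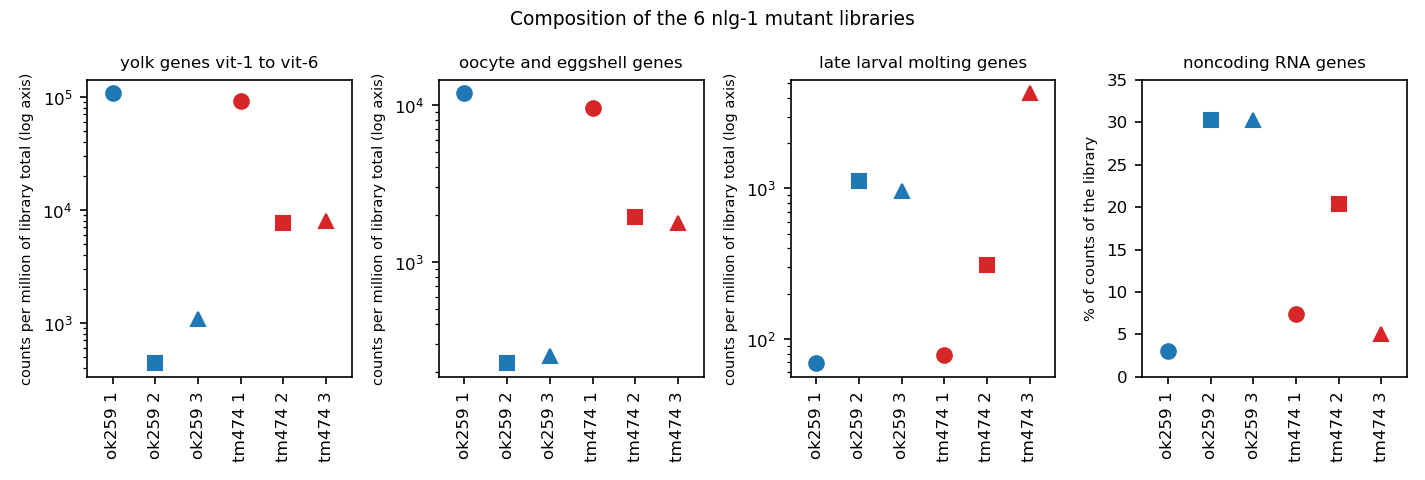
Share of 4 gene groups in each of the 6 *nlg-1* mutant libraries, as summed CPM of the library total on a log axis (yolk, oocyte and eggshell, late larval molting) or as percent of all counts (noncoding RNA genes). Each point is 1 library, blue for ok259 and red for tm474, and the point shape gives the replicate number. Replicate 1 of both alleles is highest for yolk and oocyte genes, and tm474 replicate 3 is highest for molting genes, at 4271 CPM.

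Between the alleles, 0 of 15864 genes tested (0 percent) were differentially expressed genes (DEGs) in edgeR's quasi-likelihood test. A DEG had to change by more than 1 on the log2 scale in either direction, with a Benjamini-Hochberg adjusted p under 0.05. The smallest adjusted p was 0.506. Without adjustment, 64 genes had a p under 0.05 with tm474 higher (0.403 percent) and 46 with tm474 lower (0.29 percent), together 0.693 percent of the genes tested. These numbers were 1826 and 528 without ok259 replicate 1, 141 and 171 without tm474 replicate 2, 19 and 14 without ok259 replicate 2 and 28 and 39 without ok259 replicate 3, with 0 DEGs in each. DESeq2 on the same 6 libraries called 5 genes higher and 2 lower in tm474, with a smallest adjusted p of 9.5e-09. In 194 genes every tm474 library lay above every ok259 library (1.22 percent), and in 220 genes every one lay below (1.39 percent), together 414 genes (2.61 percent). Log2 fold changes are given throughout as tm474 minus ok259, with their standard error, from 3 libraries of each allele. Their median over all genes tested was -0.04. The shares of 0.403 and 0.29 percent are the background for counts of list members past an unadjusted p of 0.05. For list members without overlap the background is 1.22 and 1.39 percent.

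Deviations of same-numbered libraries from the means of their alleles correlated at 0.806 for replicate 1, 0.606 for replicate 2 and only 0.291 for replicate 3. The deviations of ok259 replicate 3 correlated better with those of tm474 replicate 2 than with those of tm474 replicate 3. The fit that takes the replicate number as a block compares the alleles within numbers. This pairing rests on these correlations alone, and the calls and adjusted p of the blocked fit depend on it. With this block edgeR called 14 DEGs (0.0883 percent), 6 higher in tm474 (0.0378 percent) and 8 lower (0.0504 percent), and at an unadjusted p below 0.05 there were 497 genes higher (3.13 percent) and 367 lower (2.31 percent), together 864 (5.45 percent). The 14 were *nep-16*, *fat-5*, *scl-24* and the neighbouring Y102A5C.36, Y102A5C.5 and Y102A5C.6, higher in tm474, and *flp-10*, *mtl-1*, *clec-61*, ZK228.3, ZK228.4, T26H5.8, F17B5.1 and C23G10.11, lower in tm474. The 7 genes that DESeq2 called without the block (*nep-16*, *scl-24*, the 3 Y102A5C genes, ZK228.3 and ZK228.4) were all among them. Of the 14 genes, 9 lie on chromosome V, which holds 3138 of the 15864 genes tested. The 9 include the 3 neighbouring Y102A5C genes and the neighbours ZK228.3 and ZK228.4. In 10 of the 14 the libraries of the alleles did not overlap (2.61 percent of all genes). The 14 were called on these same libraries, so this is no separate support for them. The number rested on single replicate numbers, with 54 DEGs without replicate 1 (11 of the 14 among them), 6 without replicate 2 (6 among them) and 249 without replicate 3 (14 among them), and each of these fits compared only 2 libraries with 2. Over 12 settings of the blocked fit, *nep-16* was called in 11, Y102A5C.36, ZK228.3 and ZK228.4 in 10, Y102A5C.5 and Y102A5C.6 in 9, *mtl-1* and T26H5.8 in 8, *flp-10*, *fat-5*, *scl-24* and *clec-61* in 6 and F17B5.1 and C23G10.11 in 5. In 1 of the 12, DESeq2 with its default independent filtering, all 14 had no adjusted p.

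The targeted gene was counted in all libraries of both alleles. *nlg-1* (WBGene00006412, chromosome X, 13625373 to 13631172 on the minus strand of WBcel235) had 8.37, 7.85 and 8.49 CPM in ok259 replicates 1, 2 and 3 and 1.59, 1.29 and 6.78 CPM in tm474 replicates 1, 2 and 3. The 3 ok259 libraries lay within 7.85 to 8.49 CPM, and tm474 replicates 1 and 2 were far below them while tm474 replicate 3 came close to them without overlap. The log2 fold change was -1.34 (SE 0.77) and did not pass the test (adjusted p = 1.00 in edgeR). Without tm474 replicate 3 the log2 fold change was -2.50 and without tm474 replicate 2 it was -0.95, and in none of the alternatives did it pass. N2 had 12.95 to 17.8 CPM of the library total, against 6.61 to 10.06 in ok259 and 1.18 to 6.45 in tm474 on the same scale, so all libraries of both alleles lay below all of N2. Low values were not particular to the *nlg-1* mutants, since *nrx-1* (ok1649) had 3.202 to 8.21 and *nrx-1* (tm1961) 3.05 to 19.9. The counts are sums over the exons of a gene, so they do not show whether reads fell inside the deleted parts. *nrx-1* had 6.21, 9.96 and 8.44 CPM in ok259 and 5.05, 8.12 and 11.7 CPM in tm474, the alleles overlapped, and its log2 fold change was 0.02 (SE 0.59), with a sign that changed in 8 of 20 alternatives.

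A few genes were counted in one allele only. Counted here, without a test, were genes that stayed within 3 counts in each library of one allele and reached 10 or more in each library of the other. There were 4 such genes for tm474 and 3 for ok259, and all 7 lay on chromosome V. This chromosome holds 3138 of the 15864 genes tested, but the rule covered all genes of the table, also untested ones such as ZK262.8. The numbers depended on single libraries, with 13 and 19 genes without ok259 replicate 1, 12 for tm474 without tm474 replicate 1, and 5 and 9 for ok259 without ok259 replicate 3 and without tm474 replicate 2. Y102A5C.36 (protein-coding) and the pseudogenes Y102A5C.5 and Y102A5C.6 lie next to each other between 16926922 and 16930063. Y102A5C.36 had 0 counts in the 3 ok259 libraries and 36, 155 and 105 in tm474 replicates 1, 2 and 3, which makes it at least 34.4-fold higher in tm474, taking 3 counts per library as the floor. Y102A5C.5 had 0 counts in all ok259 libraries and 92, 52 and 121 in tm474 (at least 42.4-fold higher), and Y102A5C.6 had 0 in ok259 and 125, 47 and 191 in tm474 (at least 57.7-fold higher). These folds cover counting error only. With the replicate block the adjusted p of the 3 genes in edgeR was 5.34e-05, 4.29e-05 and 2.54e-05.

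The fourth gene of this kind, *scl-24* (17486334 to 17487241), encodes a secreted protein of the SCP family. It had 0, 0 and 1 counts in ok259 and 21, 47 and 24 in tm474. Over the summed counts of 92 and 1, scaled by the effective library sizes, the ratio of tm474 to ok259 was 99.5, with a 95% exact counting interval from 17.4 to 3973. This interval covers counting error only and not the spread between libraries. The gene was also picked by these same counts, so the interval does not test the difference. The adjusted p in edgeR with the block was 0.0162, with a call in 6 of the 12 blocked settings. In the opposite direction, ZK228.4 (18462787 to 18465426) had 135, 337 and 400 counts in ok259 and 0 in all tm474 libraries (at least 65.0-fold lower in tm474). Its neighbour ZK228.3 (18458241 to 18461250) had 127, 153 and 175 counts in ok259 and 0 in all tm474 libraries (at least 35.1-fold lower). In edgeR with the block the adjusted p was 7.05e-06 for ZK228.4 and 2.54e-05 for ZK228.3. ZK262.8, at 18438381 to 18440195 in the same stretch, had 10, 18 and 20 counts in ok259 and 0 in tm474 (at least 3.63-fold lower) and was too low to enter the test.

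The other strains differed at the same places. The Y102A5C genes were also at 0 counts in the 3 libraries of *nrx-1* (ok1649), the other mutant from the Caenorhabditis Genetics Center, and were counted in N2 (179 to 746 over the 3 genes) and in *nrx-1* (tm1961) (87 to 419). N2 came from the Caenorhabditis Genetics Center too, so these genes did not follow the source over all strains. ZK228.3, ZK228.4 and ZK262.8 were at 0 to 2 counts in *nrx-1* (tm1961), the other mutant from the National Bioresource Project, and were counted in N2 (20 to 257) and in *nrx-1* (ok1649) (6 to 1206). *scl-24* did not follow the source among the mutants either, with 9 to 18 counts in N2, 26 to 28 in the *nrx-1* mutant ok1649 and 0, 16 and 19 in tm1961. By the rule that picked them, each of the 7 genes was within the floor in all 3 replicates of one *nlg-1* strain and counted in the other. All 7 were counted in N2.

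**Figure D2:**
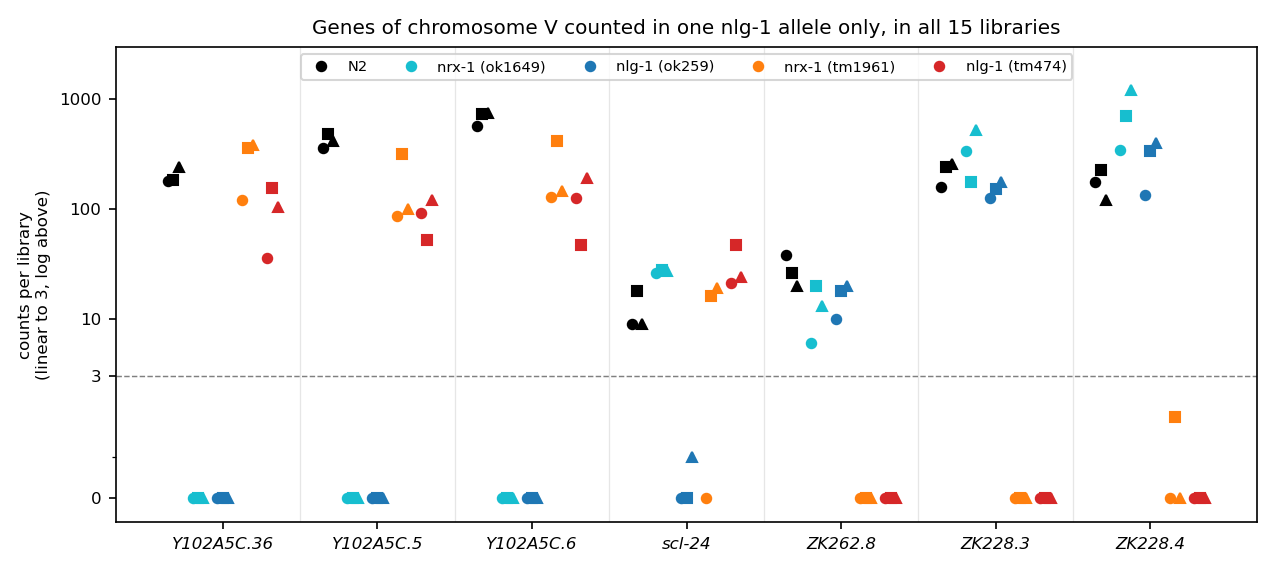
Counts per library of the 7 chromosome V genes that were counted in one *nlg-1* allele only, in all 15 libraries (y axis linear up to 3 counts and logarithmic above, dashed line at the floor of 3). Each point is 1 library, colour gives the strain and point shape the replicate number. The 3 Y102A5C genes are at 0 in ok259 and *nrx-1* (ok1649), and ZK262.8, ZK228.3 and ZK228.4 are at 0 in tm474 and at 0 to 2 in *nrx-1* (tm1961).

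*nep-16* (chromosome IV, 7635653 to 7641858), of the neprilysin family of membrane metallopeptidases, which cut small peptides outside the cell, had the largest absolute log2 fold change of the genes that were counted in all 6 libraries and did not overlap between alleles. It was at 0.119, 2.73 and 2.11 CPM in ok259 replicates 1, 2 and 3 and 53.8, 163 and 54.8 CPM in tm474 replicates 1, 2 and 3. The lowest tm474 library stood well above the highest ok259 library, and the log2 fold change was 5.76 (SE 1.12). It was a DEG with the block, with a log2 fold change of 6.07 (SE 0.71) and an adjusted p of 2.68e-05 in edgeR, and also in DESeq2 without the block, and it was called in 11 of the 12 blocked fits (in the other, DESeq2 set its adjusted p aside in independent filtering). On the scale of CPM of the library total, *nep-16* was at 0.415 to 2.22 in N2, 0.398 to 2.23 in the *nrx-1* mutant ok1649 and 0.2 to 2.08 in tm1961 against 39.9 to 193 in tm474, so the tm474 libraries were the ones that lay apart. The gene overlaps *arf-1.1* on the other strand by its end, and *arf-1.1* itself was at 0.777, 9.08 and 11.7 CPM in ok259 and 2.92, 7.48 and 6.58 CPM in tm474, which overlapped. *nep-16* also overlaps F45E4.16 on the other strand, whose values are not given here.

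*fat-5* (chromosome V, 17725004 to 17726818) encodes a fatty acid desaturase that acts on palmitic acid. It had 3.05, 2.20 and 0.816 CPM in ok259 replicates 1, 2 and 3 and 26.6, 10.10 and 16.9 CPM in tm474 replicates 1, 2 and 3, every tm474 library lay above every ok259 library, and the log2 fold change was 3.14 (SE 0.74). With the block it was a DEG (log2 fold change 3.197 (SE 0.60), adjusted p = 0.0252 in edgeR), but in only 6 of the 12 blocked settings. Its adjusted p in edgeR was 0.053 with library totals, 0.0963 on protein-coding genes, 0.178 without replicate 2, 0.261 with upper quartile factors and 0.563 when the noncoding share was adjusted for. N2 had 5.27 to 17.02 CPM of the library total, ok259 0.957 to 2.82 and tm474 11.96 to 19.7. The *nrx-1* mutants were at 4.09 to 11.9 (ok1649) and 2.60 to 42.3 (tm1961), so ok259 lay below all libraries of N2 and of ok1649 but overlapped those of tm1961. *fat-5* overlaps *twk-42* and W06D12.8 on the opposite strand, and without the strand setting of the counting such reads cannot be told apart.

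*flp-10* (chromosome IV, 7868907 to 7870081), a gene for FMRFamide-like neuropeptides, was the reverse. It had 18.05, 12.7 and 11.03 CPM in ok259 replicates 1, 2 and 3 and 2.52, 1.80 and 1.28 CPM in tm474 replicates 1, 2 and 3. The alleles did not overlap, the fold was much the same at each replicate number, with log2 ratios of -2.79, -2.74 and -3.005, and the log2 fold change was -2.90 (SE 0.62). *flp-10* was a DEG with the block (adjusted p = 0.0293 in edgeR) and in the edgeR fit on all 15 libraries without it (adjusted p = 0.0385). Of the 12 blocked settings 6 called it, and its adjusted p in edgeR was 0.0552 without replicate 1, 0.97 without replicate 2, 0.0856 on protein-coding genes, 0.173 with upper quartile factors and 0.458 when the noncoding share was adjusted for. The other strains were at 17.9 to 26.2 (N2), 11.5 to 15.3 (*nrx-1* ok1649) and 14.5 to 22.9 (*nrx-1* tm1961) CPM of the library total and tm474 at 1.22 to 2.14, so the low level was seen in tm474 and not in ok259, which had 12.9 to 16.2.

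The other DEGs of the blocked fit shared a different shape, with ok259 replicate 2 the highest of the 6 libraries in each. *mtl-1*, a metallothionein that binds metals, had 3.05, 31.4 and 2.88 CPM in ok259 replicates 1, 2 and 3 and 0.266, 1.80 and 0.281 CPM in tm474 replicates 1, 2 and 3 (adjusted p = 0.00836 with the block), and the alleles did not overlap. *clec-61*, a C-type lectin, had 2.57, 54.1 and 9.36 CPM in ok259 and 0.266, 3.14 and 2.13 CPM in tm474 and the alleles overlapped (adjusted p = 0.0418 with the block). T26H5.8 had 3.53, 32.98 and 7.29 CPM in ok259 and 0.133, 4.34 and 0.401 CPM in tm474 (adjusted p = 0.00836 with the block). In all 3 genes the libraries of one allele spanned a wide range, and tm474 was lower than ok259 at each replicate number. F17B5.1 had 4.06, 96.9 and 24.1 CPM in ok259 and 0.266, 13.5 and 4.78 CPM in tm474 (adjusted p = 0.0404 with the block), and C23G10.11 had 10.99, 45.5 and 9.26 CPM in ok259 and 0.531, 11.8 and 0.883 CPM in tm474 (adjusted p = 0.0404 with the block). Their blocked log2 fold changes ran from -3.71 (*mtl-1*) to -2.85 (F17B5.1). Without replicate 2 of both alleles none of the 5 was called in edgeR with the block, with adjusted p from 0.178 to 1.00, and *clec-61* was called in 6 and F17B5.1 and C23G10.11 in 5 of the 12 blocked settings.

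The remaining genes of smallest p whose libraries did not overlap passed the test in neither fit on the 6 libraries. *haf-6*, a half-molecule ABC transporter known for its part in RNA interference, had 13.9, 10.05 and 11.4 CPM in ok259 replicates 1, 2 and 3 and 66.8, 34.9 and 60.6 CPM in tm474 replicates 1, 2 and 3 and a log2 fold change of 2.20 (SE 0.53). N2 was at 42.1 to 48.05 CPM of the library total and tm474 at 41.3 to 57.6, whereas ok259 was at 10.96 to 13.4 and *nrx-1* (ok1649) at 11.2 to 16.6. *haf-6* thus had its low values in the same strains as the Y102A5C genes. It overlaps Y48G8AL.7 on the opposite strand. *gst-24*, a glutathione S-transferase, had 0.956, 0.793 and 1.25 CPM in ok259 and 6.11, 2.66 and 11.04 CPM in tm474 (log2 fold change 2.72 (SE 0.75)). It is flanked on chromosome II by *gst-20*, with 20.6, 4.19 and 8.49 CPM in ok259 and 63.9, 11.6 and 66.5 CPM in tm474, and *gst-12*, with 2.51, 3.35 and 4.27 CPM in ok259 and 7.70, 6.88 and 7.91 CPM in tm474, within 13608154 to 13618061. In these 3 neighbours each tm474 library was above the ok259 library of its number, and in *gst-20* the alleles overlapped. Y48E1B.8, nearby at 13585705 to 13589038, had 3.70, 1.63 and 2.64 CPM in ok259 and 23.6, 5.29 and 16.7 CPM in tm474 (log2 fold change 2.51 (SE 0.74)), and H16D19.3 on chromosome I had 0.299, 0.132 and 0.096 CPM in ok259 and 2.52, 1.504 and 1.28 CPM in tm474 (log2 fold change 3.30 (SE 0.84)). Y48E1B.8 overlaps *clec-145* on the opposite strand.

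On the lower side the pseudogenes F07H5.3 and F07H5.4 and the gene F07H5.5 follow each other on the plus strand of chromosome II (8784535 to 8789716). F07H5.3 had 153, 515 and 516 CPM in ok259 and 43.97, 80.1 and 39.1 CPM in tm474, F07H5.4 had 40.9, 168 and 143 CPM in ok259 and 12.1, 22.7 and 21.4 CPM in tm474 and F07H5.5 had 646, 683 and 605 CPM in ok259 and 142, 119 and 258 CPM in tm474. None of the 3 overlapped between alleles, with log2 fold changes of -2.86, -2.64 and -1.90, and their reads could be shared where the copies are alike. F07H5.5 was named after its values were seen. R10E4.1 (log2 fold change -2.04 (SE 0.57)), R02D3.4 (-2.35 (SE 0.66)) and K01A2.4 (-2.24 (SE 0.67)) were lower in all 3 tm474 libraries too, with R02D3.4 at 61.8, 22.2 and 19.9 CPM in ok259 and 9.56, 4.81 and 6.10 CPM in tm474. K01A2.4 overlaps *mps-2* on the opposite strand. The noncoding F31C3.14 had 5.20, 3.13 and 287 CPM in ok259 and 2.26, 2.66 and 1.61 CPM in tm474, so that its log2 fold change of -5.50 (SE 1.69) rested on ok259 replicate 3.

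**Figure D3:**
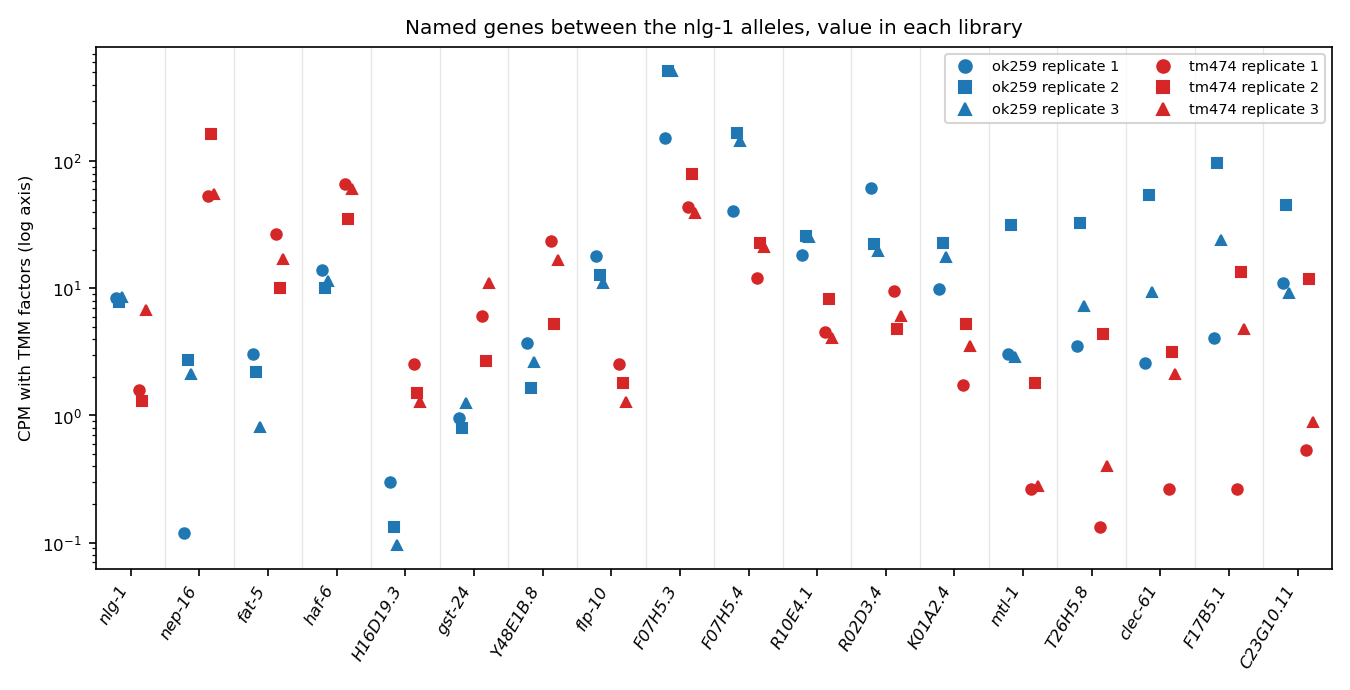
CPM with TMM factors (log axis) of 18 genes named between the alleles, with each point 1 library, blue for ok259, red for tm474, and the point shape the replicate number. The tm474 points of *nep-16* lie between 53.8 and 163 CPM above all ok259 points, and those of *flp-10* below all ok259 points, while *clec-61*, T26H5.8, F17B5.1 and C23G10.11 overlap between alleles.

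Among the synapse and neuropeptide lists, *flp-10* was the only DEG of the blocked fit. Of 16 genes for neuroligin and its partners, all tested, 0 passed an unadjusted p of 0.05 in either direction without the block, 11 had positive and 5 negative log2 fold changes, and the median was 0.16 beside -0.04 over all genes. The sign of this median was not stable, with -0.28 without tm474 replicate 3, -0.03 with the block and -0.39, -0.31 and 0.81 at replicates 1, 2 and 3. Adjusting for the noncoding share of the libraries, which moved the median of all genes from -0.04 to 0.13, gave -0.03. The largest values were those of *shn-1*, the Shank scaffold, with 11.7, 6.61 and 7.24 CPM in ok259 and 9.56, 7.95 and 48.9 CPM in tm474 (log2 fold change 1.38 (SE 0.79)), *lin-10* with 0.60 and *dlg-1* with 0.51. tm474 replicate 3 was the highest library for *shn-1*, *lin-10* and *dlg-1*. On the lower side after *nlg-1* came *madd-4*, the secreted organizer, with 5.86, 16.4 and 20.2 CPM in ok259 and 6.51, 9.497 and 13.1 CPM in tm474 (log2 fold change -0.54 (SE 0.64)), and *rig-3* with -0.39. *nlg-1* itself was the 1 gene of the list whose alleles did not overlap.

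GABA signalling (9 of 10 genes tested) had a median of -0.11, acetylcholine signalling (19 of 19) -0.16 and vesicle release (15 of 15) -0.06, with 0 genes past an unadjusted p of 0.05 in edgeR in each list, with or without the block, and 0 genes without overlap. The GABA receptor gene *unc-49* had 29.7, 22.04 and 24.8 CPM in ok259 and 15.4, 13.4 and 69.5 CPM in tm474 (log2 fold change 0.36 (SE 0.71)), with the lowest and the highest value both in tm474. The GABA transporter gene *snf-11* had 5.86, 21.7 and 24.9 CPM in ok259 and 3.19, 15.04 and 15.1 CPM in tm474 (log2 fold change -0.65 (SE 0.78)). The acetylcholine receptor subunits *acr-16* and *unc-29* had log2 fold changes of -0.61 and -0.65, and the vesicular acetylcholine transporter *unc-17* had 0.68. Among release genes the range ran from *snb-1* (synaptobrevin) at 0.54 to *snt-1* (synaptotagmin) at -0.74. By replicate number the medians of vesicle release genes were -0.38, -0.45 and 0.47 at 1, 2 and 3, so tm474 was below ok259 at replicates 1 and 2 and above at replicate 3, and the GABA and acetylcholine lists had their highest value at replicate 3 as well. Left-out single libraries moved the median of vesicle release genes from -0.47 to 0.14, the lowest without tm474 replicate 3. Adjusting for the noncoding share turned all 3 medians positive (0.19, 0.09 and 0.01), beside 0.13 for all genes.

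Of the FMRFamide-like peptide genes (30 of 31 tested), *flp-10* alone passed an unadjusted p of 0.05, the only gene of the list that did not overlap between alleles. The median was -0.40, with 18 of 30 genes negative. Next to *flp-10* at -2.90, the lowest were *flp-7* with 5.26, 15.5 and 13.8 CPM in ok259 and 5.31, 6.27 and 6.14 CPM in tm474 (log2 fold change -0.96 (SE 0.61)) and *flp-12* with -0.90, and the highest *flp-33*, *flp-3* and *flp-11* with 1.48, 1.15 and 0.88, each highest in tm474 replicate 3. Neuropeptide-like protein genes (49 of 55 tested) had a median of -0.29 and 0 past an unadjusted p of 0.05, from *nlp-56* at 1.66 to *nlp-41* at -1.28. Of the insulin-like peptides (25 of 40 tested, median -0.15), *ins-30* had 1.37, 0.529 and 0.144 CPM in ok259 and 1.46, 1.76 and 7.22 CPM in tm474 (log2 fold change 2.37 (SE 1.03), 1 gene past an unadjusted p of 0.05), *ins-4* had 2.27, 3.62 and 1.87 CPM in ok259 and 0.133, 1.03 and 1.40 CPM in tm474 (log2 fold change -1.53 (SE 0.85)) and *ins-11* had 0.06, 11.99 and 4.17 CPM in ok259 and 0, 0.817 and 1.28 CPM in tm474 (log2 fold change -2.86 (SE 1.51)). Of all genes, 0.403 percent were past an unadjusted p of 0.05 upward, as *ins-30* was. The alleles did not overlap for *ins-30* and *ins-4*, against 1.22 percent of all genes upward and 1.39 percent downward. With the block 2 insulin-like genes were past an unadjusted p of 0.05 upward and 5 downward (against 3.13 and 2.31 percent of all genes), with 0 DEGs. Adjusting for the noncoding share, the medians of the 3 peptide families were 0.16, 0.34 and 0.49, each of the opposite sign, beside 0.13 for all genes.

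Cuticle collagens of the *col* family, which build the outer coat of the worm, had more positive than negative differences. Of 121 tested (of 159), 85 had positive log2 fold changes, and the median was 0.85. Past an unadjusted p of 0.05 were 6 upward and 0 downward, against 0.403 and 0.29 percent of all genes. In 5 the alleles did not overlap, all higher in tm474, against 1.22 percent of all genes. *col-92* had 213, 90.4 and 136 CPM in ok259 replicates 1, 2 and 3 and 914, 359 and 745 CPM in tm474 replicates 1, 2 and 3 (log2 fold change 2.20 (SE 0.71)), *col-149* had 24.7, 20.01 and 56.3 CPM in ok259 and 77.8, 72.97 and 239 CPM in tm474 (log2 fold change 1.95 (SE 0.72)) and *col-133* had 126, 161 and 251 CPM in ok259 and 401, 342 and 1207 CPM in tm474 (log2 fold change 1.86 (SE 0.76)). *col-147* and *col-159* were the other 2 without overlap, with 1.07 and 1.17. The family was not even, since *col-169* had 1.55, 6.52 and 11.6 CPM in ok259 and 5.31, 10.10 and 202 CPM in tm474, with most of its log2 fold change of 3.46 (SE 1.40) in tm474 replicate 3, and *col-120* had 15.00, 833 and 1078 CPM in ok259 and 23.8, 334 and 341 CPM in tm474 (log2 fold change -1.46 (SE 1.36)). The medians by replicate number were 0.40, -0.44 and 1.22, and leaving out single libraries took the median of the family from -0.74 to 1.13, negative without tm474 replicate 3. It stayed positive with upper quartile factors (0.80) and library totals (0.70), and adjusting for the noncoding share it was 1.75, beside 0.13 for all genes. With the block the median was 0.58, with 20 genes past an unadjusted p of 0.05 upward and 2 downward (against 3.13 and 2.31 percent of all genes) and 0 DEGs.

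Many genes that shape the body and the molting cuticle, though not all, were highest in tm474 replicate 3, the library rich in molting markers. All 17 shape collagens tested had positive log2 fold changes (median 1.84), but the values of *dpy-4* were 25.8, 108 and 112 CPM in ok259 and 38.4, 69.1 and 2109 CPM in tm474 and those of *dpy-13* 20.97, 108 and 103 CPM in ok259 and 34.5, 69.8 and 1913 CPM in tm474, so that tm474 replicate 3 alone lay above the ok259 libraries. The 1 gene past an unadjusted p of 0.05 was *dpy-3* (0.403 percent of all genes upward). By replicate number the medians of the shape collagens were 0.60, -1.63 and 2.81. Their median was -1.44 without tm474 replicate 3, 0.58 with the block and 3.48 adjusting for the noncoding share. Molting genes (12 of 12 tested, median 0.75, and -1.14 without tm474 replicate 3) ran from *mlt-11*, a protease inhibitor-like protein of the cuticle, at 16.1, 98.3 and 68.7 CPM in ok259 and 14.9, 19.8 and 1605 CPM in tm474 (log2 fold change 3.16 (SE 1.68)) down to the astacin protease *nas-36* at 2.69, 63.7 and 79.5 CPM in ok259 and 3.59, 40.01 and 27.9 CPM in tm474 (log2 fold change -1.02 (SE 1.13)). *nas-36*, *mlt-3* and *mlt-7* were highest in an ok259 library. The median of the molting genes was 2.12 adjusting for the noncoding share. Pharyngeal cuticle genes of the *abu* and *pqn* families (63 of 77 tested) had a median of 0.35, with 49 positive and 0 past an unadjusted p of 0.05, and of -0.34 without tm474 replicate 3. Muscle filament and actin genes (19 of 19, 17 positive) had a median of 0.54 (-0.02 without tm474 replicate 3 and -0.24 adjusting for the noncoding share), with 0 past it. The highest was the intestinal actin *act-5* at 1095, 103 and 239 CPM in ok259 and 1141, 362 and 1519 CPM in tm474 (log2 fold change 1.07 (SE 1.005)).

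Yolk and oocyte genes differed between the fits. Without the block, yolk genes had a median of 0.15 and oocyte and eggshell genes of 0.02, with 0 of 6 and 0 of 18 genes past an unadjusted p of 0.05. *vit-4* had 6689.9, 7.94 and 35.1 CPM in ok259 replicates 1, 2 and 3 and 9312, 428 and 476 CPM in tm474 replicates 1, 2 and 3 (log2 fold change 0.60 (SE 2.07)), and *cpg-2*, a chondroitin proteoglycan of the eggshell, had 2089.6, 29.4 and 31.2 CPM in ok259 replicates 1, 2 and 3 and 2234, 347 and 253 CPM in tm474 replicates 1, 2 and 3 (log2 fold change 0.40 (SE 1.59)). In both genes the replicate 1 libraries of the alleles lay close together and far above the rest, and at replicates 2 and 3 tm474 was above ok259. With the block the medians were 2.63 for yolk genes, 5 of 6 past an unadjusted p of 0.05 upward, and 1.70 for oocyte and eggshell genes, 14 of 18 upward, against 3.13 percent of all genes. Neither list held a DEG. The medians by replicate number were 0.03, 4.64 and 3.09 for yolk and -0.31, 2.74 and 2.67 for oocyte genes, and without the block the median of the yolk genes ran from -2.65 to 6.27 when single libraries were left out (the lowest without tm474 replicate 1 and the highest without ok259 replicate 1).

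Sperm genes had a median near that of all genes, with single genes apart. The 76 tested of 84 had a median of 0.13, with medians by replicate number of 0.24, 0.09 and -0.01 and a range without single libraries from -0.04 to 0.25. In 9 of them the alleles did not overlap with tm474 above, and in 1 with tm474 below, against 1.22 and 1.39 percent of all genes. *msp-36*, one of the major sperm proteins that drive the crawling of sperm, had 56.3, 41.9 and 38.6 CPM in ok259 and 114.6, 97.98 and 87.9 CPM in tm474 (log2 fold change 1.14 (SE 0.50)), the 1 gene of the list past an unadjusted p of 0.05 (0.403 percent of all genes upward). *ssp-10* had 30.2, 9.48 and 8.49 CPM in ok259 and 40.5, 34.8 and 38.8 CPM in tm474 (log2 fold change 1.24 (SE 0.63)). The *spe-5* gene was the one below, with 15.4, 20.98 and 15.9 CPM in ok259 and 7.70, 10.14 and 10.6 CPM in tm474 (log2 fold change -0.88 (SE 0.52)). The *msp* genes are near-identical copies, so the value of each is uncertain.

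Genes of protein synthesis had mostly positive differences, and none passed the test. Of 77 cytosolic ribosomal protein genes, all tested, 68 had positive log2 fold changes, the median was 0.97, and 0 were past an unadjusted p of 0.05. In 4 the alleles did not overlap, all higher in tm474, against 1.22 percent of all genes. Summed over the list they were at 118196, 45737 and 47479 CPM in ok259 and 165571, 65196 and 122703 CPM in tm474, with tm474 above ok259 at each number but the alleles overlapping. *rps-23* had 1839, 1730.4 and 1566 CPM in ok259 and 3014, 2056 and 2173 CPM in tm474 and *rpl-11.2* 501, 474 and 475 CPM in ok259 and 884, 676 and 1046 CPM in tm474 (log2 fold changes 0.50 (SE 0.72) and 0.85 (SE 0.63)). The median stayed positive without each single library, from 0.56 to 1.87, and with upper quartile factors (0.98) and library totals (0.89). Adjusting for the noncoding share it was 0.43, beside 0.13 for all genes. It was 1.14 with the block, where 10 genes were past an unadjusted p of 0.05 upward and 0 downward (against 3.13 and 2.31 percent of all genes) and 0 were DEGs. Histone genes (39 of 72 tested, 34 positive) had a median of 0.75 without the block and 1.18 with it, where 15 were past an unadjusted p of 0.05, all higher in tm474 (against 3.13 percent of all genes), and 1 without it. Without tm474 replicate 1 their median was -0.22, and adjusting for the noncoding share it was 0.45. *his-7* had 62.3, 12.8 and 10.8 CPM in ok259 and 179, 33.05 and 51.8 CPM in tm474 and *his-17* had 31.4, 18.7 and 12.7 CPM in ok259 and 98.7, 36.1 and 37.4 CPM in tm474, and only *his-17* had alleles without overlap. Histone genes are near-identical copies too.

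Mitochondrial ribosomal protein genes (66 of 66, median -0.05) and the 12 protein genes of the mitochondrial genome (median 0.01) lay near the median of all genes, with 0 genes past an unadjusted p of 0.05 in either list. The mitochondrial genes varied with the library, with *ctc-3*, a subunit of cytochrome c oxidase, at 603, 4821 and 5637 CPM in ok259 and 2136, 7934 and 3145 CPM in tm474, and their median by replicate number was 1.69, 0.42 and -1.21. The adenine nucleotide translocators, which carry ATP across the inner mitochondrial membrane, had 3 of 4 genes tested, with *ant-1.1* at 4779, 568 and 734 CPM in ok259 and 5386, 1416 and 5177 CPM in tm474 (log2 fold change 0.98 (SE 1.09)), and *ant-1.3* and *ant-1.4* highest in tm474 replicate 3. Proteasome genes (33 of 33) had a median of 0.10, chaperonin genes (8 of 8) 0.34 and heat shock protein genes (18 of 22 tested) 0.60, each with 0 past an unadjusted p of 0.05. Adjusting for the noncoding share, the medians were -0.23 for proteasome, -0.21 for chaperonin and 0.23 for heat shock genes, and 1.65 for the genes of the mitochondrial genome, beside 0.13 for all genes. The highest heat shock gene was *hsp-3*, a chaperone of the endoplasmic reticulum, at 915, 192 and 330.1 CPM in ok259 and 1038, 286 and 2047 CPM in tm474 (log2 fold change 1.23 (SE 0.94)), and the alleles overlapped.

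Among detoxification genes, glutathione S-transferases and P450 enzymes had medians of different sign. Adjusting for the noncoding share both were positive (0.48 and 0.03), beside 0.13 for all genes. Of 37 glutathione S-transferase genes tested (of 44), 23 were positive with a median of 0.27. Past an unadjusted p of 0.05 upward were 2 (*gst-24* and *gst-20*), against 0.403 percent of all genes. In 5 the alleles did not overlap with tm474 above and in 1 (*gst-29*) with tm474 below, against 1.22 and 1.39 percent of all genes. The 5 were *gst-24*, *gst-12*, *gst-2*, *gst-7* and *gst-27*, and *gst-7* had 98.6, 93.9 and 91.97 CPM in ok259 and 136, 108 and 179.6 CPM in tm474 (log2 fold change 0.57 (SE 0.52)). Of 55 cytochrome P450 genes tested (of 81), 34 were negative with a median of -0.17. Past an unadjusted p of 0.05 were 4 downward and 0 upward, against 0.29 and 0.403 percent of all genes. In 3 the alleles did not overlap with tm474 below, against 1.39 percent of all genes. *cyp-37B1* had 33.3, 142 and 42.7 CPM in ok259 and 4.38, 31.9 and 12.6 CPM in tm474 (log2 fold change -2.15 (SE 0.87)), *cyp-29A3* had 3.11, 7.76 and 11.1 CPM in ok259 and 1.73, 1.68 and 2.41 CPM in tm474 (log2 fold change -1.91 (SE 0.69)) and *cyp-13A7* had 8.01, 14.02 and 2.21 CPM in ok259 and 0.399, 2.19 and 0.883 CPM in tm474 (log2 fold change -2.76 (SE 0.92)). None of them was a DEG in either fit. UDP-glucuronosyltransferases (59 of 65) had a median of -0.03 (0.52 adjusting for the noncoding share) and 1 gene past an unadjusted p of 0.05 (0.403 percent of all genes upward), *ugt-63*, with 7.11, 6.66 and 17.8 CPM in ok259 and 79.4, 26.1 and 11.2 CPM in tm474.

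Immune families held single genes in both directions. C-type lectins (119 of 264 tested, median -0.06) had 3 genes past an unadjusted p of 0.05 upward and 2 downward, against 0.403 and 0.29 percent of all genes. *clec-52* had 3.35, 4.36 and 4.46 CPM in ok259 and 9.56, 10.5 and 21.1 CPM in tm474 (log2 fold change 1.76 (SE 0.60)) and *clec-76* had 1.49, 5.91 and 2.399 CPM in ok259 and 0, 0.988 and 0.442 CPM in tm474 (log2 fold change -2.66 (SE 1.08)), both without overlap. They were the only lectins without overlap, 1 in each direction of 119 tested, against 1.22 and 1.39 percent of all genes. Lysozymes (11 of 16, median 0.00), CUB-like and *dod* genes (15 of 17, median -0.01) and the epidermal antimicrobial peptides of the caenacin and *nlp-29* group (12 of 19, median -0.15) had 0 genes past it and 0 without overlap. Of the saposin-like *spp* genes (17 of 23, median -0.30), *spp-17* was past it upward (0.403 percent of all genes) with 136, 75.3 and 94.6 CPM in ok259 and 470.2, 132 and 360.2 CPM in tm474 (log2 fold change 1.65 (SE 0.68)), while *spp-2* had 124, 441 and 147 CPM in ok259 and 30.02, 127 and 23.6 CPM in tm474 (log2 fold change -1.98 (SE 0.87)). Adjusting for the noncoding share, the medians were 0.25 for *spp* genes, 1.44 for the caenacin group and 0.17 for C-type lectins, beside 0.13 for all genes.

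Of the large families, F-box genes of the *fbxa* group (144 of 222 tested) had 101 negative log2 fold changes and a median of -0.29. In 1 gene (*fbxa-185*) the unadjusted p was below 0.05 downward, against 0.29 percent of all genes. In 4 the alleles did not overlap, all lower in tm474, against 1.39 percent of all genes. Their median by replicate number was -0.15, 0.02 and -1.003, so most of it lay at replicate 3, and it was 0.31 adjusting for the noncoding share (0.13 for all genes). Nuclear hormone receptor genes (187 of 281 tested) had a median of -0.12 (0.10 adjusting for the noncoding share, beside 0.13 for all genes) with 0 past an unadjusted p of 0.05. In 4 the alleles did not overlap with tm474 above and in 8 with tm474 below, against 1.22 and 1.39 percent of all genes. Fatty acid desaturases and elongases (16 of 16) had a median of 0.15, and *fat-5* was the one gene past it, with the elongase *elo-2* next at 170.1, 39.5 and 34.1 CPM in ok259 and 286, 78.6 and 148 CPM in tm474 (log2 fold change 1.07 (SE 0.82)). By chromosome, genes past an unadjusted p of 0.05 were spread over all 6, with 18 higher and 14 lower of 3138 tested on V and 16 and 13 of 2705 on II.

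**Figure D4:**
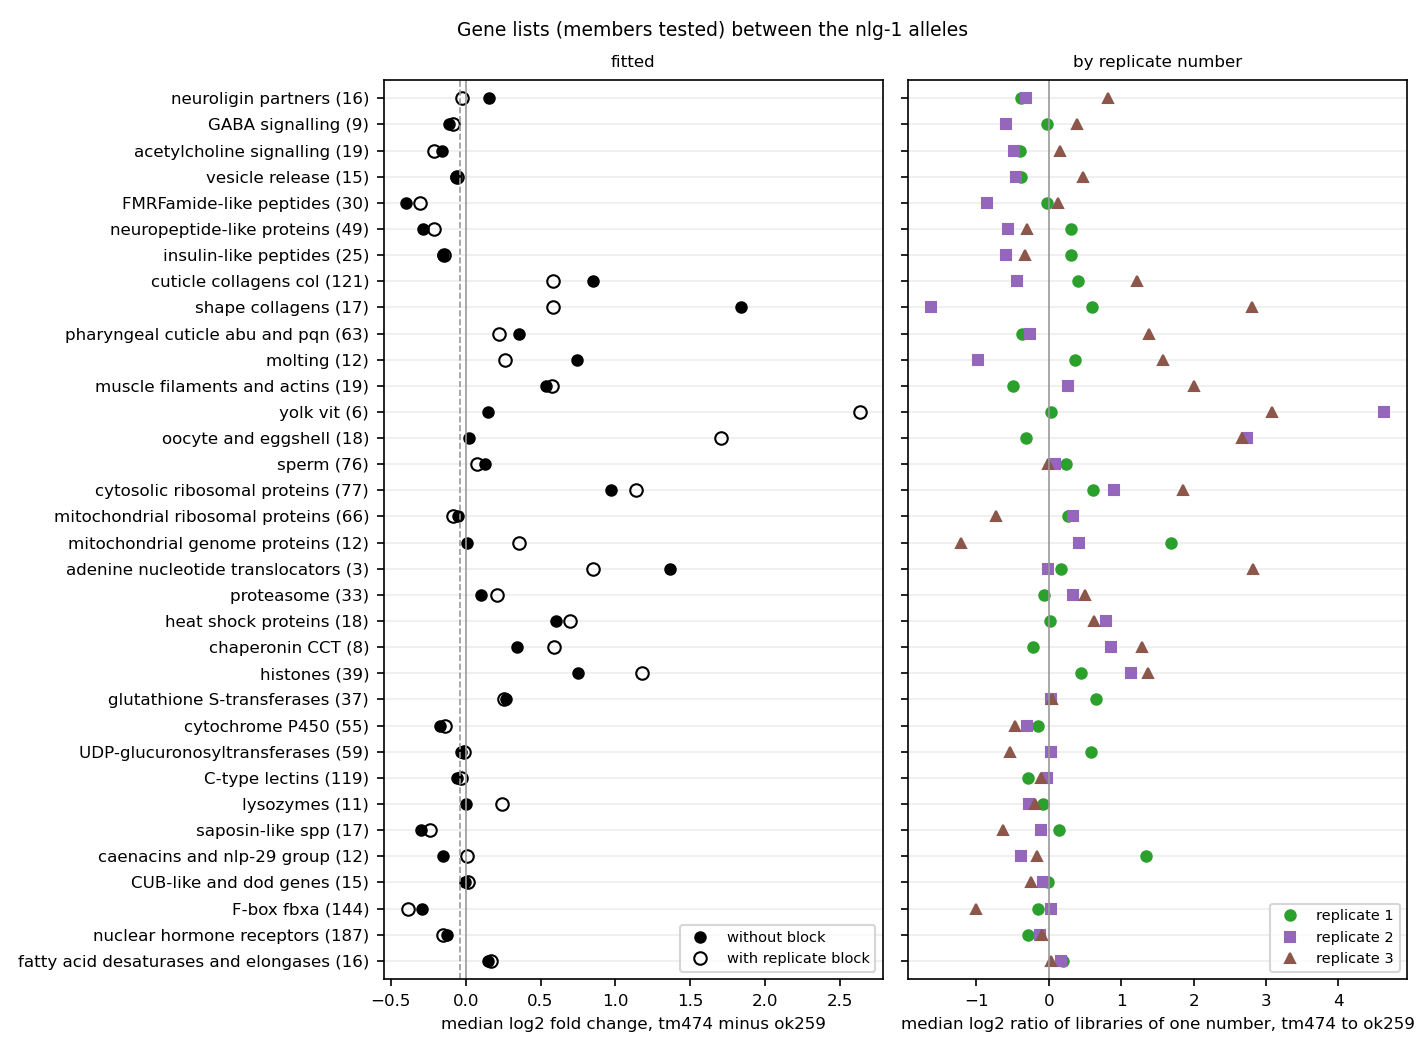
Median log2 fold change (tm474 minus ok259) of the members tested of each gene list, left from the fits without (filled) and with (open) the replicate block, right as the log2 ratio of the libraries of one replicate number. Numbers in parentheses are members tested, the dashed line is the median of all genes (-0.04). Yolk genes stand at 0.15 without and 2.63 with the block, and shape collagens at -1.63 at replicate 2 and 2.81 at replicate 3.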

How the data were processed

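Total RNA of whole worms was sequenced from strand-specific, rRNA-depleted libraries. Per the methods of the study, reads were trimmed (Trimmomatic), mapped to the Ensembl worm genome (STAR), and those unique to exons were counted per gene (featureCounts). The submitters' processing notes name the build WBcel235 and bcl2fastq 2.20. The authors deposited these values as raw counts, without normalization. The Ensembl release and the strand setting of the counting are not given in the sources used here, so genes that overlap on opposite strands are uncertain. The table lists 46756 genes, 28830 of them counted in an *nlg-1* library. Positions (WBcel235) and biotypes came from Ensembl 115, which holds 46581 of the identifiers.

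Groups and replicates came from the labels, which call the replicates biological. The methods of the study describe 3 independent preparations of worms, so p-values measure the spread between such preparations. The alleles were compared in edgeR 4.0.16 (R 4.3.3) with TMM factors, filterByExpr and the quasi-likelihood test, 3 libraries against 3, with DESeq2 1.42.0 as an alternative. The labels give both alleles the same replicate numbers. The deviations of same-numbered libraries from their group means correlated at 0.806, 0.606 and 0.291 for replicates 1, 2 and 3, so the numbers were taken as pairs. This pairing rests on these correlations alone, and ok259 replicate 3 correlated better with tm474 replicate 2 (0.500) than with tm474 replicate 3. No pair of replicates was a copy (chi-square of at least 30.7 per degree of freedom).

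Named genes are *nlg-1* and *nrx-1*, the 10 genes per direction of smallest p among non-overlapping genes with an absolute log2 fold change above 1, genes counted in one allele only, and up to 3 members of a list with the largest change in each direction. The DEGs of the blocked fit, non-overlapping list members and neighbours were added after their values were seen. The members and the 34 lists were chosen with earlier results of these data known, and lists are described by counts and medians without a test. CPM values carry TMM factors, unless given as CPM of the library total. The fits were tested on simulated data. Other normalizations, filters, covariates and fits without single replicates were tried, and no sequence is shown.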

Additional observations from a re-analysis of the deposited data

How the results depend on the processing

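The absence of DEGs without the block held under the other normalizations in edgeR, the stricter CPM filter, protein-coding genes only, without genes over 5% of a library, the bias-adjusted test, the adjusted p alone and each library left out (0 in all). It did not hold with DESeq2 (5 higher, 2 lower in tm474), without a filter on low counts (7 and 5), on all 15 libraries (3 and 3), adjusting for the noncoding share on 6 (1 and 0) or 15 libraries (4 and 6) and with the replicate block (6 and 8). The genes past an unadjusted p of 0.05 numbered 64 and 46, against 143 and 111 with DESeq2, 452 and 192 without a filter, 127 and 161 on all 15 libraries, 264 and 71 or 386 and 246 with the covariate on 6 or 15 libraries, 497 and 367 with the replicate block, 21 and 23 without replicate 3 of both alleles, and 19 to 1826 and 14 to 528 without single libraries, the highest without ok259 replicate 1. Within the blocked fit (6 and 8 DEGs), alternatives added after seeing the data gave 39 and 6 with DESeq2 (0 of the 14 DEGs of edgeR among them, their adjusted p being NA), 34 and 23 with DESeq2 without independent filtering (all 14 DEGs of edgeR among them), 2 and 4 for protein-coding genes only, 1 and 0 adjusting for the noncoding share, 4 and 2 with upper quartile factors, 5 and 5 with the CPM filter, and 4 to 130 and 2 to 119 without single replicate numbers. With the covariate *nep-16* was the 1 gene called, and *flp-10*, no longer past the threshold, still had a log2 fold change of -2.82. Non-overlapping genes numbered 1197 and 1172 without replicate 3 of both alleles, where 2 libraries face 2. Genes counted in tm474 only numbered 4 to 13 and in ok259 only 3 to 19 without single libraries. The log2 fold change of *nlg-1* ran from -2.50 to -0.95 without single libraries, and the difference in noncoding share from -19.4 to -5.74 percentage points. The sign of *nrx-1* turned with upper quartile factors (-0.13), library totals (-0.17), all 15 libraries (-0.024), the replicate block (-0.038), protein-coding genes only (-0.057), without replicate 3 of both alleles (-0.30) and without single libraries (-0.32 to 0.26). The cause was not tested. Over 25 genes other than *nlg-1*, 439 of 492 values under alternatives kept direction and side of the threshold, 45 passed it newly and the other 8 were these signs of *nrx-1*. The block changed no call of a named gene other than the 14. Upper quartile factors and library totals moved the median of all genes from -0.04 to -0.14 and -0.18, and the covariate on 6 libraries moved it to 0.13. The common dispersion was 0.510 (0.212 with the block), and the shallowest library had 10152578 counts.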
